A study of Mus musculus with 2 samples.

Results

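Elastic fibres are the stretchable part of the lung's extracellular matrix, and this account describes 8 genes that build and cross-link them. The genes were chosen by symbol from the 32883 features of the deposited tables: Eln (ENSRNOG00000001469), Fbn1 (ENSRNOG00000007302), Fbln5 (ENSRNOG00000050539), Mfap5 (ENSRNOG00000015505), Pcolce (ENSRNOG00000025001), Lox (ENSRNOG00000014426), Loxl1 (ENSRNOG00000008680) and Loxl2 (ENSRNOG00000016758). All 8 were present in the tables. Single lung cells were sequenced with 10x Genomics droplets in 2 libraries, each from wild-type animals. The first comes from hepatic ischemia-reperfusion (HIR), a procedure that stops and then restores the blood flow of the liver, with lungs collected at 6 hours. The second followed sham surgery, and its title gives no time of collection. Both groups were killed under pentobarbital anesthesia, and the ages and the number of animals behind a library are not given in the sources used here. The labels name the mouse, whereas all 32883 features carry rat Ensembl identifiers (ENSRNOG), so symbols were read as the tables give them. The tables hold no genome coordinates.

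In an elastic fibre, a core of elastin is laid on a scaffold of microfibrils made of fibrillin and its partner glycoproteins. Fibulins bring the soluble precursor, tropoelastin, to the microfibrils, and the copper-dependent lysyl oxidases oxidize its lysines so that neighbouring molecules become joined. In the lung these fibres run through the walls of airways, vessels and alveoli and give the recoil of breathing out. Pcolce is the exception among the 8: its product speeds the removal of the C-terminal propeptide from procollagens, a step of collagen fibre assembly that precedes cross-linking by lysyl oxidases.

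A UMI, or unique molecular identifier, marks 1 captured transcript, and the HIR library counted 50801778 of them in 9499 barcodes and the sham library 59566745 in 10719 barcodes. The median barcode had 3094 UMIs in HIR and 3426 in sham. Filters kept 7925 HIR and 8574 sham cells, and 24 barcodes occurred in both libraries. Cells were clustered without the 8 genes and named from marker genes, giving 27 classes, and 20 of them were compared because each library held 100 cells or more. The suffix -like marks a name that rests on markers. The 8 genes were mainly found in 6 classes, which held 90.7% (HIR) and 93.2% (sham) of all Eln UMIs and from 86.0% to 97.9% of those of each other gene in either library. They were adventitial fibroblast-like cells (238 HIR and 375 sham), which line large airways and vessels, alveolar fibroblast-like cells (127 and 338), cells named here by their leading genes Wnt11 and Lum (1003 and 973), myofibroblast- or smooth muscle-like cells (453 and 746), smooth muscle-like cells (133 and 208) and venous endothelium-like cells (243 and 182). The first 5 are called stromal below. The myofibroblast- or smooth muscle-like cluster had Slitrk6, Cldn11 and Hhip together with Myh11 and Tagln among its leading genes, and the smooth muscle-like cluster also carried the pericyte markers Cox4i2 and Higd1b among its own. The venous name rested on a marker list of which Vwf and Vcam1 were among the cluster's leading genes.

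Levels are CPM, the UMIs of a gene per 1000000 UMIs of the same class and library. Each group is a single library, so nothing was tested, every difference describes these 2 libraries, and library and treatment cannot be told apart. Values in parentheses after a level, ratio or share are exact 95% intervals, which cover counting error only. A gene counted as measured in a class when one library reached 20 CPM and both together 20 UMIs, and as higher or lower when the ratio of HIR CPM over sham CPM was past 1.5-fold. For log2 ratios, 10 CPM was first added to both levels.

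In the HIR library 5 of 8 measured genes were lower in alveolar fibroblast-like cells, 5 of 6 in the Wnt11 and Lum cells and 4 of 7 in myofibroblast- or smooth muscle-like cells, against 3 of 8 in adventitial fibroblast-like and 1 of 7 in smooth muscle-like cells. Loxl1, Pcolce, Fbn1 and Mfap5 were below their sham CPM in all 5 stromal classes. For Mfap5 in smooth muscle-like cells, however, the interval held 1 and the mean over cells was higher in HIR. Lox was higher in both fibroblast classes. Eln, the gene of tropoelastin itself, differed in direction by class, being higher in HIR alveolar fibroblast-like cells and lower in the Wnt11 and Lum cells, the myofibroblast- or smooth muscle-like cells and the venous endothelium-like cells.

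Counted by class, the alveolar fibroblast-like cells had 5 of 8 measured genes lower and 2 higher, with a median log2 ratio of -0.76. Among all 5931 genes measured in that class, 13.4% were lower, 21.3% were higher and the median log2 ratio was 0.08. The Wnt11 and Lum cells had 5 of 6 measured genes lower and 1 higher, with a median log2 ratio of -0.90, against 8.29% lower and 8.27% higher and a median of 0.02 over all 5512 genes. In myofibroblast- or smooth muscle-like cells 4 of 7 were lower and 1 higher, with a median of -0.97, where 6.19% of all 5476 genes were lower and 11.0% higher and their median was 0.06. Adventitial fibroblast-like cells had 3 of 8 lower and 1 higher, with a median of -0.21, and 12.1% of all 5478 genes there were lower and 13.5% higher around a median of -0.01. In smooth muscle-like cells 1 of 7 was lower and none was higher, close to the background of 11.0% lower and 8.09% higher among 5548 genes. The median of the 7 was -0.38 against -0.04. That median was the value of Fbln5, for which the mean over cells was higher in HIR. Venous endothelium-like cells had 3 of 4 measured genes lower and none higher, with a median of -1.05, against 10.6% lower, 6.98% higher and a median of -0.04 over 5770 genes. With all 8 genes that had any UMI in that class, their median was -0.18.

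In 3 of the 6 classes a gene was measured through 1 library only, the one in which it was higher, so the minimum itself favoured that direction. These were Fbln5 in the Wnt11 and Lum cells and Lox in the myofibroblast- or smooth muscle-like cells, both through HIR, and Mfap5 in the venous endothelium-like cells through sham. The minimum was also set on the mean level of both libraries, a choice made after seeing the data. The Wnt11 and Lum cells then had 5 of 5 genes lower and a median of -0.91, against 7.8% lower and 7.1% higher among all 5170 genes. The venous endothelium-like cells had 2 of 3 lower and a median of -0.99, against 9.3% lower and 5.9% higher among all 5418 genes. In the other 4 classes the counts of the 8 genes were as given above.

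**Figure D1:**
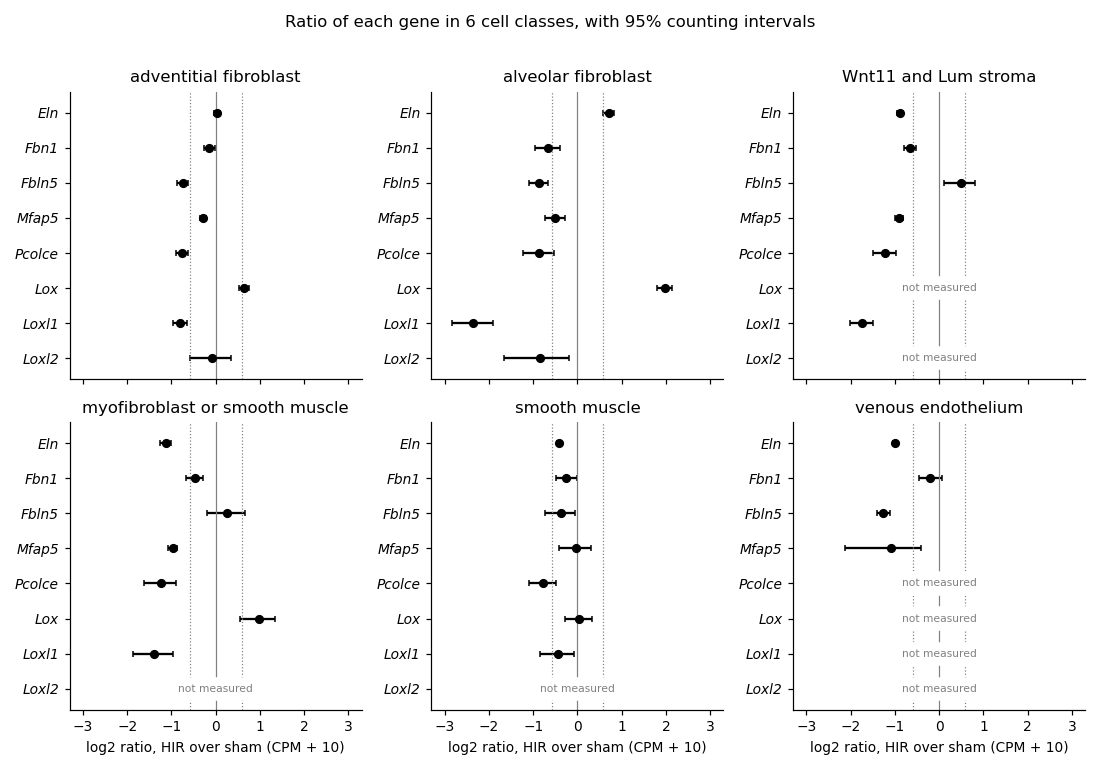
Log2 ratio of each gene, HIR over sham, in the 5 stromal classes and in venous endothelium-like cells (points, after 10 CPM was added), with 95% counting intervals (bars); dotted lines mark 1.5-fold and "not measured" marks genes under the minimum. Lox lies furthest to the right at 1.97 and Loxl1 furthest to the left at -2.35, both in alveolar fibroblast-like cells.

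The plot of log2 ratios by class shows that the points left of 0 outnumber those right of it in every panel. Other RNA moved with the library in the same classes. The summed level of 8 neutrophil markers ran from 331 to 1598 CPM over the 6 classes in the HIR library and from 39.8 to 114 CPM in the sham library, with 5 to 7 of the 8 markers higher in HIR and Cxcr2 at 0 in the HIR library in 4 of the classes. The summed level of 6 erythroid markers ran from 463 to 1277 CPM in HIR and from 648 to 5255 CPM in sham. In the Wnt11 and Lum cells the 7 smooth muscle markers summed to 1578 CPM in HIR and 2604 CPM in sham, with 0 of 7 higher in HIR, and the 9 alveolar fibroblast markers to 373 CPM in HIR and 93.8 CPM in sham, with 3 of 9 higher. In myofibroblast- or smooth muscle-like cells the smooth muscle markers summed to 12408 CPM in HIR and 14961 CPM in sham, with 1 of 7 higher. In adventitial fibroblast-like cells the 9 markers of that class summed to 7530 CPM in HIR and 9325 CPM in sham, with 2 of 9 higher. The part of these marker levels in the ratios was not tested.

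The fibre core comes from Eln, which encodes tropoelastin, the soluble protein that is cross-linked into elastin. Its level in smooth muscle-like cells was 4779 CPM (4643 to 4918) in HIR and 6397 CPM (6261 to 6536) in sham, and in venous endothelium-like cells 3056 CPM (2975 to 3138) in HIR and 6099 CPM (5971 to 6229) in sham. Adventitial fibroblast-like cells had 2421 CPM in HIR and 2369 CPM in sham. These 3 classes stood first in both libraries, and no class had an interval that overlapped the next of the 3. Those intervals leave out the spread between cells. In sham the median venous endothelium-like cell had more Eln than the median smooth muscle-like cell. After every cell was thinned to 1000 UMIs, 92.2% of sham venous endothelium-like and 70.7% of sham smooth muscle-like cells had an Eln UMI. A single sham cell held 19.4% of the venous endothelium-like UMIs, so no order between these classes is read in sham.

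Eln in alveolar fibroblast-like cells stood at 1554 CPM in HIR and 947 CPM in sham, a ratio of 1.64 (1.51 to 1.78). A single HIR cell held 12.1% of the Eln UMIs of this class. Without the cell richest in Eln in each library the ratio was 1.55. After thinning to 1000 UMIs, 55.1% of HIR (45.7 to 64.3) and 42.5% of sham cells (37.0 to 48.1) had an Eln UMI. The intervals of these shares overlapped, and the median cell had more Eln in HIR. The Wnt11 and Lum cells went the other way, with 961 CPM in HIR and 1771 CPM in sham and a ratio of 0.543 (0.518 to 0.569). Myofibroblast- or smooth muscle-like cells had 475 CPM in HIR and 1047 CPM in sham, a ratio of 0.454 (0.415 to 0.495). The order of the alveolar fibroblast-like and Wnt11 and Lum classes was therefore not the same in the 2 libraries: alveolar fibroblast-like cells ranked 4 in HIR and 6 in sham. In adventitial fibroblast-like cells the ratio was 1.02 (0.979 to 1.07), and the counting interval held 1.

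Eln in smooth muscle-like cells had a ratio of 0.747 (0.721 to 0.774), under the 1.5-fold limit. There the share of cells with an Eln UMI, after every cell was thinned to 1000 UMIs, was 81.1% in HIR (73.3 to 87.4) and 70.7% in sham (64.0 to 76.9), so level and share pointed in different directions and no order is read from them. The median cell had 35.2 Eln UMIs per 10000 in HIR and 34.6 in sham. The summed pericyte markers of this class were at 1739 CPM in HIR and 3718 CPM in sham, with 0 of 9 higher in HIR, and the smooth muscle markers at 28437 CPM in HIR and 24903 CPM in sham. The part of that mix in the Eln level was not tested.

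Venous endothelium-like cells had an Eln ratio of 0.501 (0.484 to 0.518). A single sham cell held 19.4% of the Eln UMIs of its class, and without the cell richest in Eln in each library the ratio was 0.571. The median cell had 19.1 Eln UMIs per 10000 in HIR and 40.5 in sham, and even the sham 25th percentile, 22.7, lay above the HIR median. After thinning, 76.8% of HIR cells (70.9 to 82.0) and 92.2% of sham cells (87.2 to 95.7) had an Eln UMI. Among the venous endothelium-like cells without a UMI of the 7 arterial markers, 45 HIR and 42 sham cells, the ratio was 0.329 (0.291 to 0.372). Among the 198 HIR and 140 sham cells with one it was 0.520 (0.502 to 0.539). The 6 venous markers in this class summed to 4530 CPM in HIR and 4633 CPM in sham, with 4 of 6 higher in HIR. General capillary markers, 8 in number, summed there to 4455 CPM in HIR and 5788 CPM in sham, with 3 of 8 higher. The 7 lymphatic markers in this class summed to 2532 CPM in HIR and 1360 CPM in sham, with 4 of 7 higher in HIR. Among them, Mmrn1 and Reln were at 0 in both libraries, and Prox1 and Tbx1 at 0 in sham only. The part of these markers in the Eln ratio was not tested.

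Capillary endothelium carried far less Eln. General capillary endothelium-like cells had 196 CPM in HIR and 325 CPM in sham, a ratio of 0.603 (0.527 to 0.691), and aerocyte capillary endothelium-like cells had 88.9 CPM in HIR and 135 CPM in sham, a ratio of 0.661 (0.544 to 0.799). Club cell-like cells, the secretory cells of the airway, had 509 CPM in HIR and 89.8 CPM in sham, but 1 cell held 69.6% of the HIR UMIs and 1 cell held 55.6% of the sham UMIs. In neutrophil-like cells the level was 16.2 CPM in HIR and 128 CPM in sham, and 1 sham cell held 47.9% of the sham UMIs. Eln was measured in that class through sham only. Over the 14 compared classes outside the stroma and venous endothelium, the median Eln level was 16.0 CPM in HIR and 25.4 CPM in sham. Immune cells should lack the gene. After thinning, 0.960% of HIR (0.312 to 2.23) and 2.16% of sham B cell-like cells (1.24 to 3.49) had an Eln UMI. The shares were 0.823% in HIR and 1.41% in sham T cell-like cells. In neutrophil-like cells they were 1.67% in HIR (1.01 to 2.59) and 6.38% in sham (3.83 to 9.9). Free RNA and stray or mixed cells were not told apart in these classes. In the B cell-like class 1 HIR cell held 36.7% of the Eln UMIs. B cell-like cells had a median of 2469 UMIs in HIR and 2119 in sham, and alveolar fibroblast-like cells 4258 in HIR and 4892 in sham.

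**Figure D2:**
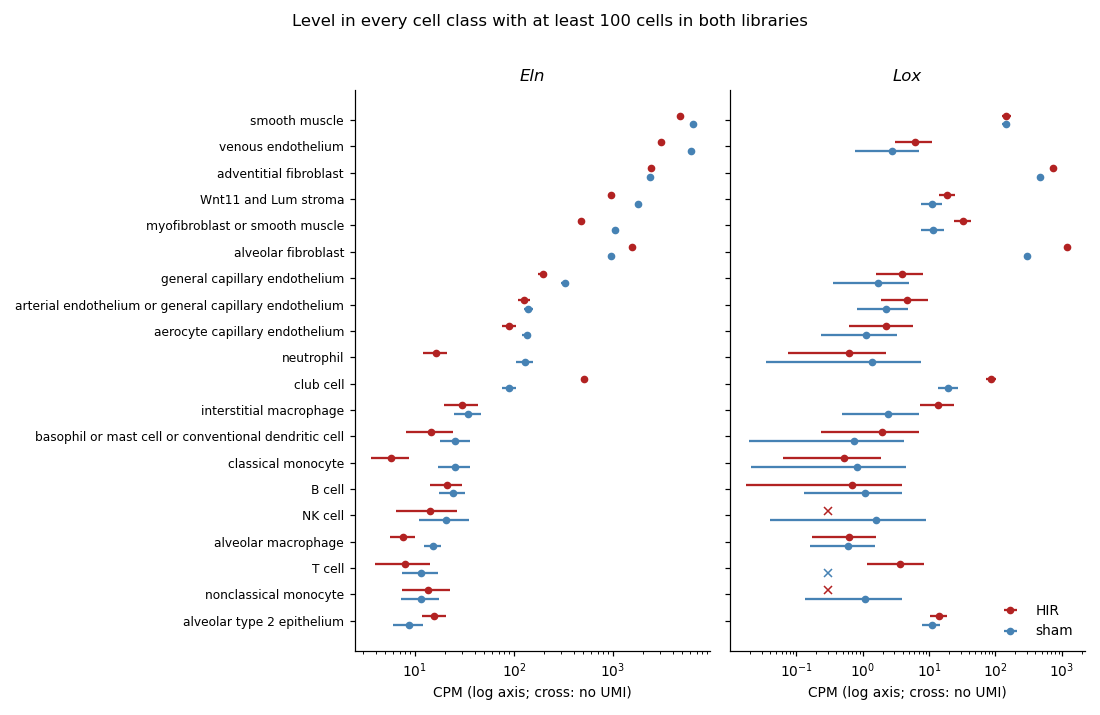
Level of Eln (left) and Lox (right) in the 20 compared classes, HIR (red, upper point) and sham (blue, lower point), on a log axis in CPM with 95% counting intervals; crosses mark classes without a UMI. Eln runs from 4779 CPM in HIR and 6397 CPM in sham smooth muscle-like cells down to under 10 CPM in some immune and epithelial classes, and Lox lies highest in the 2 fibroblast classes.

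The plot over all 20 classes shows that both genes also ranged widely within the stroma. Lox stood at 1196 CPM in HIR and 297 CPM in sham in alveolar fibroblast-like cells. In the Wnt11 and Lum cells it stood at 18.7 CPM in HIR and 11.1 CPM in sham. Club cell-like cells, outside the stroma, lay above that with 87.3 CPM in HIR and 19.4 CPM in sham, within the limits given below. Of the 2 genes, Eln alone has the venous endothelium-like class in its upper group, while Lox stayed at 6.23 CPM in HIR and 2.81 CPM in sham in the venous endothelium-like class, under the minimum to be measured.

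Of the scaffold genes, Fbn1 encodes fibrillin-1, the main protein of microfibrils. Adventitial fibroblast-like cells had the highest level in both libraries, with 584 CPM (544 to 626) in HIR and 647 CPM (615 to 680) in sham, a ratio of 0.903 (0.828 to 0.985). Alveolar fibroblast-like cells expressed 230 CPM in HIR and 373 CPM in sham, a ratio of 0.618 (0.507 to 0.749). Cells with Wnt11 and Lum had 217 CPM in HIR and 348 CPM in sham, a ratio of 0.623 (0.562 to 0.690). Fbn1 was thus lower past 1.5-fold in these last 2 classes.

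Fbn1 stood at 205 CPM in HIR and 290 CPM in sham in myofibroblast- or smooth muscle-like cells (ratio 0.708), at 219 CPM in HIR and 262 CPM in sham in smooth muscle-like cells (0.835) and at 130 CPM in HIR and 151 CPM in sham in venous endothelium-like cells (0.863). In the HIR library the intervals of neighbouring stromal classes other than adventitial fibroblast-like cells overlapped. In the other 14 compared classes Fbn1 reached at most 34.4 CPM in HIR and 20.5 CPM in sham. The HIR value was that of a cluster with markers of both arterial and general capillary endothelium, where sham had 14.5 CPM and the ratio was 2.38 (1.54 to 3.71) from 51 HIR and 39 sham UMIs. Fbn1 was measured there through HIR only, so the minimum favoured a higher value.

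Mfap5 encodes MAGP-2, a small glycoprotein bound to microfibrils. In adventitial fibroblast-like cells it stood at 1909 CPM in HIR and 2320 CPM in sham, a ratio of 0.823 (0.785 to 0.862). Myofibroblast- or smooth muscle-like cells had 746 CPM in HIR and 1469 CPM in sham, a ratio of 0.508 (0.473 to 0.544), and the Wnt11 and Lum cells had 545 CPM in HIR and 1036 CPM in sham, a ratio of 0.526 (0.494 to 0.560). The order of these classes was the same in the 2 libraries, with no overlap between neighbouring intervals.

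Alveolar fibroblast-like cells had 377 CPM of Mfap5 in HIR and 538 CPM in sham, a ratio of 0.700 (0.600 to 0.815). Smooth muscle-like cells had 96.1 CPM in HIR and 99.0 CPM in sham, a ratio of 0.971 (0.736 to 1.28). The venous endothelium-like value, 4.53 CPM in HIR and 21.1 CPM in sham, rests on 8 HIR and 30 sham UMIs and was measured through sham only.

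Fbln5 encodes fibulin-5, which binds tropoelastin and carries it to the microfibrils. Its level in adventitial fibroblast-like cells was 463 CPM (428 to 501) in HIR and 784 CPM (748 to 820) in sham, a ratio of 0.591 (0.539 to 0.647). Alveolar fibroblast-like cells had 362 CPM in HIR and 670 CPM in sham, a ratio of 0.541 (0.463 to 0.628). In venous endothelium-like cells it stood at 312 CPM in HIR and 766 CPM in sham, a ratio of 0.408 (0.367 to 0.452). Of the 20 compared classes these were the 3 richest in Fbln5, and in all 3 it was lower in HIR. Among venous endothelium-like cells without an arterial marker UMI the Fbln5 ratio was 0.134 (0.067 to 0.246), from 12 HIR and 93 sham UMIs, and among those with one it was 0.423 (0.380 to 0.470).

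After thinning, 16.5% of HIR (12.0 to 21.8) and 35.8% of sham (28.7 to 43.2) venous endothelium-like cells had an Fbln5 UMI. Smooth muscle-like cells had 101 CPM in HIR and 135 CPM in sham, a ratio of 0.751 (0.581 to 0.966). Their thinned shares went the other way, at 13.6% in HIR (8.29 to 20.7) and 8.78% in sham (5.29 to 13.5), with overlapping intervals. The mean over these cells was also higher in HIR, so no direction is read from the Fbln5 level of this class. The Wnt11 and Lum cells, with 23.7 CPM in HIR and 14.02 CPM in sham, had a ratio of 1.69 (1.12 to 2.58) from 66 HIR and 39 sham UMIs, and after thinning 1.64% of HIR (0.941 to 2.65) and 0.945% of sham cells (0.433 to 1.79) had a UMI, shares whose intervals overlap. In the B cell-like class these shares were 0.384% in HIR and 0.676% in sham. Alveolar type 1 epithelium-like cells, just under the cell minimum with 98 HIR and 100 sham cells, held 197 CPM of Fbln5 in HIR and 317 CPM in sham, a ratio of 0.620 (0.483 to 0.791).

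**Figure D3:**
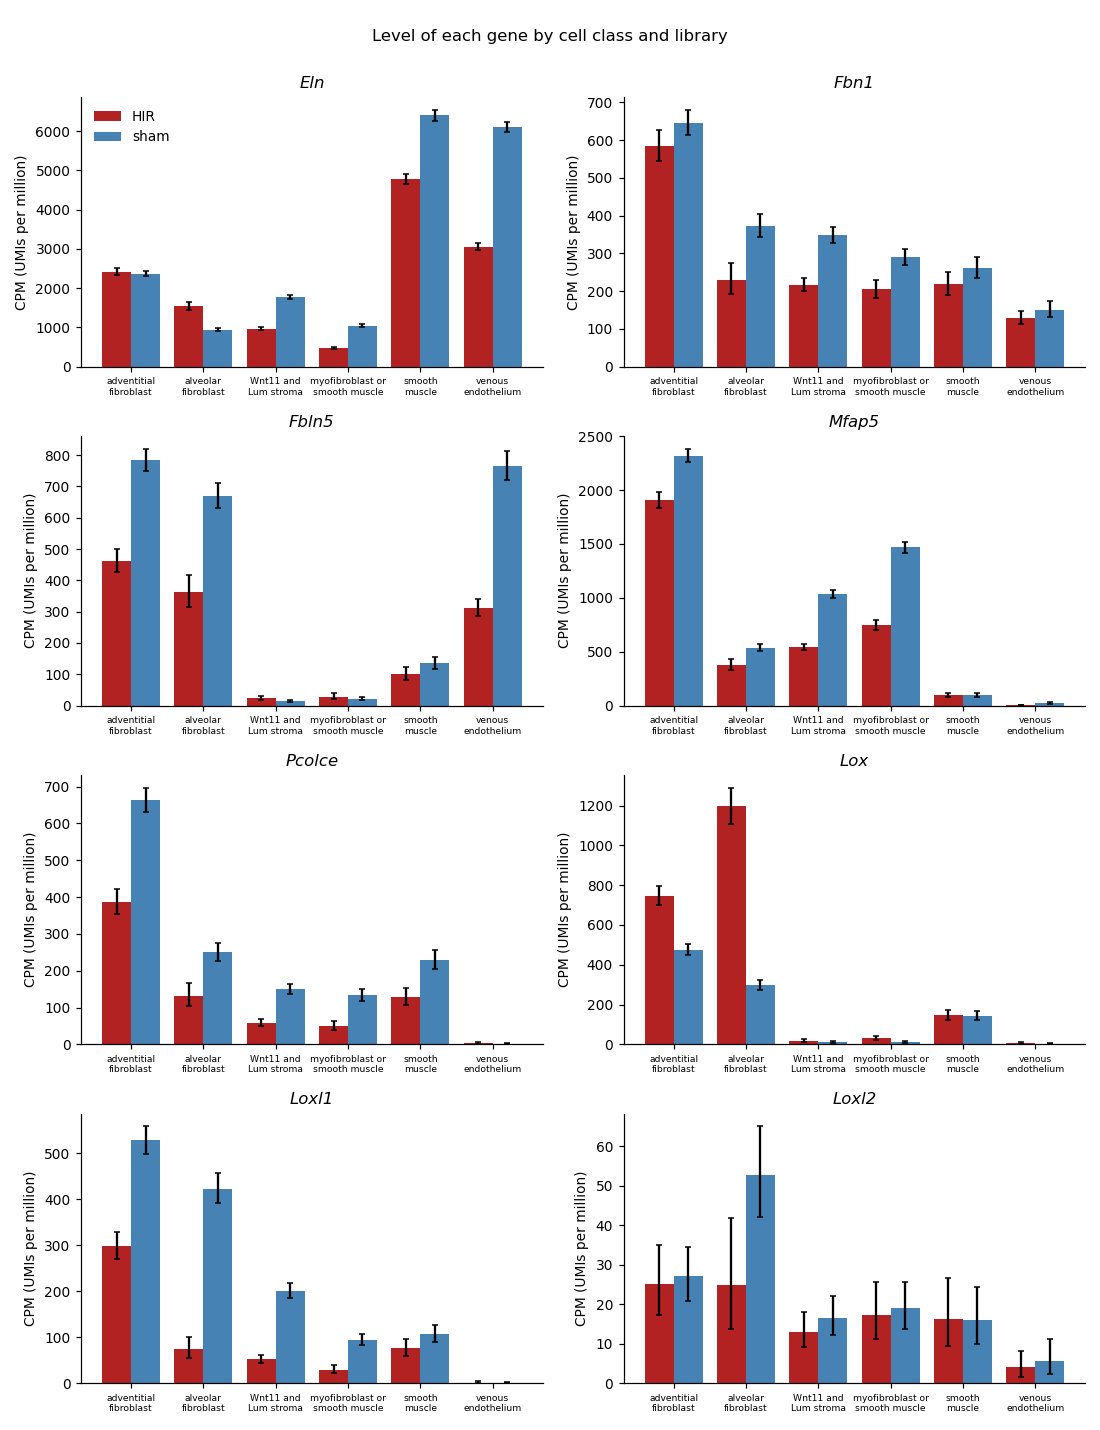
Level of each of the 8 genes (CPM, linear axes that differ by gene) in the 5 stromal classes and in venous endothelium-like cells, HIR (red, left bar) and sham (blue, right bar), with 95% counting intervals. Pcolce, Loxl1, Fbn1 and Mfap5 have the shorter bar in HIR in all 5 stromal classes, and Lox has the taller bar in HIR in both fibroblast classes.

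The bar plot of levels also shows which cells held RNA of which genes. Venous endothelium-like cells had Eln, Fbn1 and Fbln5 but held at most 11 UMIs of any lysyl oxidase gene or Pcolce in a library, while the fibroblast classes held all 8.

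Among the lysyl oxidases, Lox encodes lysyl oxidase, which cross-links both elastin and collagen. In alveolar fibroblast-like cells its level was 1196 CPM (1108 to 1291) in HIR and 297 CPM (271 to 325) in sham, a ratio of 4.02 (3.58 to 4.53). After thinning to 1000 UMIs, 68.6% of HIR cells (59.5 to 76.9) and 21.4% of sham cells (17.0 to 26.3) had a Lox UMI, and before thinning 93.7% of HIR and 60.1% of sham cells had one. The median cell had 10.7 Lox UMIs per 10000 in HIR and 1.85 in sham, so the higher level was spread over the class, and the richest HIR cell held 3.43% of its Lox UMIs.

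Adventitial fibroblast-like cells had 747 CPM of Lox in HIR and 476 CPM in sham, a ratio of 1.57 (1.44 to 1.71). The shares after thinning were 48.1% in HIR (41.5 to 54.7) and 36.4% in sham (31.5 to 41.6). Alveolar fibroblast-like cells were thus the class with the highest Lox level in HIR, and adventitial fibroblast-like cells in sham. Smooth muscle-like cells had 147 CPM in HIR and 144 CPM in sham, a ratio of 1.02 (0.818 to 1.28).

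Lox in myofibroblast- or smooth muscle-like cells stood at 32.4 CPM in HIR and 11.5 CPM in sham, a ratio of 2.82 (1.70 to 4.76) from 45 HIR and 26 sham UMIs, and was measured there through HIR only. Thinned shares were 3.39% in HIR (1.91 to 5.54) and 1.10% in sham (0.475 to 2.15), against 0.192% in HIR and 0.135% in sham B cell-like cells. The Wnt11 and Lum cells, at 18.7 CPM in HIR and 11.1 CPM in sham, were under the minimum. Club cell-like cells had 87.3 CPM of Lox in HIR and 19.4 CPM in sham, but 1 cell held 28.8% of the HIR UMIs and 1 cell 65.7% of the 35 sham UMIs. Lox was measured in that class through HIR only. Alveolar type 1 epithelium-like cells had 168 CPM in HIR and 217 CPM in sham, a ratio of 0.775 (0.586 to 1.02).

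Loxl1 encodes lysyl oxidase-like 1, which fibulin-5 tethers to elastic fibres. Its level in alveolar fibroblast-like cells was 75.0 CPM (54.1 to 101) in HIR and 424 CPM (393 to 456) in sham, a ratio of 0.177 (0.127 to 0.242). These are the cells in which Lox was higher in HIR. After thinning, 5.08% of HIR cells (1.89 to 10.7) and 34.6% of sham cells (29.4 to 40.1) had a Loxl1 UMI.

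Loxl1 in the Wnt11 and Lum cells stood at 52.9 CPM in HIR and 201 CPM in sham, a ratio of 0.263 (0.217 to 0.315). Myofibroblast- or smooth muscle-like cells had 29.5 CPM in HIR and 94.3 CPM in sham, a ratio of 0.313 (0.218 to 0.439). In adventitial fibroblast-like cells the level was 299 CPM in HIR and 528 CPM in sham, a ratio of 0.565 (0.504 to 0.633). All 3 ratios were past 1.5-fold. Smooth muscle-like cells had 75.6 CPM in HIR and 107 CPM in sham, a ratio of 0.710 (0.528 to 0.947), which was not.

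Loxl2 encodes lysyl oxidase-like 2, best known for cross-linking collagen IV of basement membranes. It was the sparsest of the 8, with 151 UMIs in HIR and 288 in sham over all kept cells, and was measured in the 2 fibroblast classes only. Alveolar fibroblast-like cells held 25.0 CPM (13.7 to 41.9) in HIR and 52.7 CPM (42.2 to 65.1) in sham, a ratio of 0.474 (0.249 to 0.840) that rests on 14 HIR and 86 sham UMIs. Adventitial fibroblast-like cells had 25.1 CPM in HIR and 27.1 CPM in sham, a ratio of 0.924 (0.591 to 1.42).

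**Figure D4:**
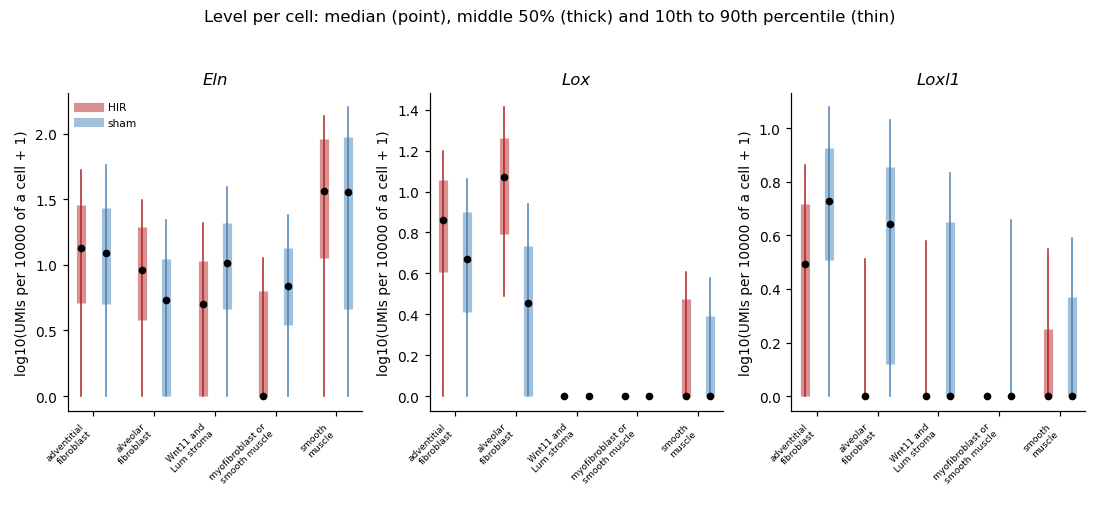
Levels of Eln, Lox and Loxl1 in single cells of the 5 stromal classes, HIR (red, left) and sham (blue, right), as log10 of UMIs per 10000 UMIs of the cell plus 1, with the median (point), the middle 50% (thick bar) and the 10th to 90th percentile (thin bar). In alveolar fibroblast-like cells the Lox median is 10.7 UMIs per 10000 in HIR and 1.85 in sham, and the Loxl1 median is 0 in HIR and 3.37 in sham.

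The per-cell plot shows the same 2 genes moving apart within the alveolar fibroblast-like class. For Lox the HIR 25th percentile, 5.18 UMIs per 10000, lay above the sham 75th percentile of 4.43. For Loxl1 even the HIR 75th percentile was 0, against 6.19 in sham. Markers of the class itself were lower in HIR, with the 9 alveolar fibroblast markers at 6878 CPM in HIR and 8163 CPM in sham and 9 adventitial fibroblast markers at 2846 CPM in HIR and 4638 CPM in sham. Of these, Ebf2 was at 0 in both libraries and Col14a1 in sham. Their part in the ratios of this class was not tested. With each cell gated alone on its markers, the log2 ratio in alveolar fibroblast-like cells kept the sign of the clustered value for each of the 8 genes.

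Of procollagen processing, Pcolce encodes procollagen C-endopeptidase enhancer 1, which raises the activity of the BMP1 family of proteases on procollagens. Its level in adventitial fibroblast-like cells, the highest of all classes in both libraries, was 387 CPM (355 to 422) in HIR and 664 CPM (631 to 697) in sham, a ratio of 0.583 (0.527 to 0.644). Alveolar fibroblast-like cells had 132 CPM in HIR and 250 CPM in sham, a ratio of 0.528 (0.407 to 0.678). Smooth muscle-like cells had 129 CPM in HIR and 229 CPM in sham, a ratio of 0.562 (0.453 to 0.694). The alveolar fibroblast-like and smooth muscle-like levels overlapped in both libraries.

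Pcolce stood at 57.9 CPM in HIR and 150 CPM in sham in the Wnt11 and Lum cells, a ratio of 0.387 (0.321 to 0.465), and in myofibroblast- or smooth muscle-like cells at 50.4 CPM in HIR and 133 CPM in sham, a ratio of 0.379 (0.287 to 0.492). Pcolce was the one member past 1.5-fold in the same direction in all 5 stromal classes. Thinned shares were lower in HIR in each of them, for example 4.98% in HIR (3.15 to 7.44) and 11.8% in sham (9.54 to 14.4) in myofibroblast- or smooth muscle-like cells. Their intervals overlapped in alveolar fibroblast-like cells, at 12.7% in HIR (7.29 to 20.1) and 20.4% in sham (16.1 to 25.3). In smooth muscle-like cells they overlapped too, at 17.4% in HIR (11.4 to 25.0) and 29.8% in sham (23.6 to 36.5).

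Pcolce and Fbn1 were both below their sham level in all 5 stromal classes, and their promoters are shown because they are 2 members of that group in the mouse RefSeq promoter table, which holds 3 of the 8 genes. Each sequence runs from 250 bases before to 50 after the gene's start on its own strand, in mouse build GRCm38.p6, while the measured features carry rat identifiers. Pcolce lies at chr5:137611355-137611654 on the minus strand and Fbn1 at chr2:125506389-125506688 on the minus strand. Capitals mark the letters GGGCGG or, read on the other strand, CCGCCC, which form a GC box.
Pcolce: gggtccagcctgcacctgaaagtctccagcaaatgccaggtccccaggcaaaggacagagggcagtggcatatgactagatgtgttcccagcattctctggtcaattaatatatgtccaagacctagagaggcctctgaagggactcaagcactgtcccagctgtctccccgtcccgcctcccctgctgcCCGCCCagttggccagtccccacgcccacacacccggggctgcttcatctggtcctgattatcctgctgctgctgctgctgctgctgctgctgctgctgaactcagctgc
Fbn1: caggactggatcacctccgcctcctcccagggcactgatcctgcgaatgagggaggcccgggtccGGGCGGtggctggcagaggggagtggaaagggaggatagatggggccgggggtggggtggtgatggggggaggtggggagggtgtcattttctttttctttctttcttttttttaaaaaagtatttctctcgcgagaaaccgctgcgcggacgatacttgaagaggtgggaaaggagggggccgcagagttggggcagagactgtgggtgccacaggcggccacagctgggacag
Each promoter held 1 GC box match, starting at base 191 of the Pcolce sequence and at base 66 of the Fbn1 sequence. Of all 32841 promoters of this length in the table, 35.7% held at least 1 match on either strand. The letters TATAAA were found on neither strand of either promoter, and 13.6% of all promoters held them. A match describes the letters alone.

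**Figure D5:**
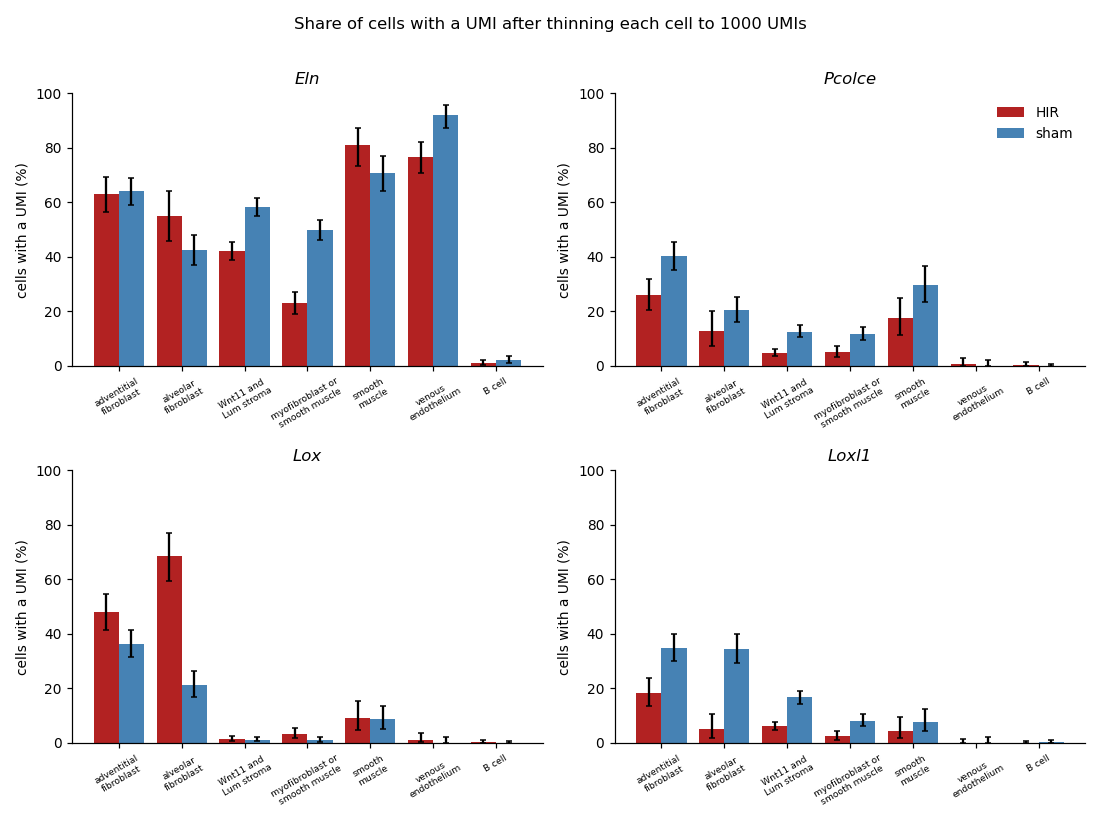
Percent of cells with at least 1 UMI of Eln, Pcolce, Lox or Loxl1 after every cell was thinned to 1000 UMIs, HIR (red, left bar) and sham (blue, right bar), with exact 95% binomial intervals; B cell-like cells show the share in cells that should lack these genes. In alveolar fibroblast-like cells Lox was found in 68.6% of HIR and 21.4% of sham cells, and Loxl1 in 5.08% of HIR and 34.6% of sham cells.

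Thinning left out cells with fewer than 1000 UMIs, 9 HIR and 20 sham cells in the alveolar fibroblast-like class and 28 HIR and 21 sham cells among the Wnt11 and Lum cells. The plot of thinned shares shows that Pcolce and Loxl1 had lower shares in HIR in the stromal classes, with levels to match, and that each of the 4 genes was found in at most 2.16% of B cell-like cells in a library. For Loxl1 in smooth muscle-like cells the intervals overlapped, at 4.5% in HIR (1.69 to 9.63) and 7.8% in sham (4.53 to 12.4). Before thinning that share was 29.3% in HIR and 29.3% in sham.

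Over all kept cells together the 8 genes were mostly lower in HIR, where the makeup of the library also counts: fewer cells of a type and less RNA per cell cannot be told apart in such a sum. The ratio of CPM was 0.645 (0.634 to 0.657) for Eln, 0.598 for Fbn1, 0.441 for Fbln5, 0.486 for Mfap5, 0.371 for Pcolce, 1.21 for Lox, 0.282 for Loxl1 and 0.591 for Loxl2. With each of the 20 classes given the same weight in both libraries, the ratio was 0.702 for Eln, 0.772 for Fbn1, 0.564 for Fbln5, 0.651 for Mfap5, 0.528 for Pcolce, 2.11 for Lox, 0.403 for Loxl1 and 0.798 for Loxl2. Equal weights thus brought the 7 lower genes closer to 1 and took Lox further above it.

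The other genes of the pathway were taken as 4 lists of 54 symbols, of which 53 are in the tables. Among 17 further fibre components, such as the latent TGF-beta binding proteins, fibulins and emilins, the Wnt11 and Lum cells had 7 of 10 measured genes lower and none higher, against 8.29% lower and 8.27% higher among all measured genes. Their median log2 ratio was -0.78, and -0.65 with all listed genes that had a UMI. Adamts10, a metalloprotease of microfibrils, stood at 162 CPM in HIR and 427 CPM in sham there (ratio 0.379), and Ltbp2, a fibrillin-binding protein, at 93.8 CPM in HIR and 219 CPM in sham (0.428). Myofibroblast- or smooth muscle-like cells had 3 of 10 lower and none higher, against 6.19% and 11.0% of all genes, with Adamts10 at 119 CPM in HIR and 259 CPM in sham (0.458).

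In venous endothelium-like cells 7 of 8 measured fibre components were lower and 1 higher, against 10.6% and 6.98% of all genes, with a median of -0.83, and of -0.61 with all listed genes that had a UMI. The following 3 were named after their values were seen. Mfap2, a microfibril glycoprotein, was at 162 CPM in HIR and 452 CPM in sham (ratio 0.359). Efemp1, fibulin-3, was at 103 CPM in HIR and 330 CPM in sham (0.312), and Fbln2, fibulin-2, at 156 CPM in HIR and 486 CPM in sham (0.321). Fbln2 was also a leading gene of this cluster. The fibre components in adventitial fibroblast-like cells were lower for 3 and higher for 2 of 14, where 12.1% and 13.5% of all genes were. In alveolar fibroblast-like cells 4 of 12 were lower and none higher, against 13.4% and 21.3% of all genes. In smooth muscle-like cells 4 of 10 were lower and 1 higher, against 11.0% and 8.09% of all genes.

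Elastases and their inhibitors, 15 genes, had 4 of 8 measured genes higher and 1 lower in adventitial fibroblast-like cells, against 13.5% higher and 12.1% lower among all genes. Their median log2 ratio was 0.68, and 0.42 with all listed genes that had a UMI. Mmp14, a membrane-bound collagenase, stood at 139 CPM in HIR and 48.3 CPM in sham (ratio 2.88). Ctsl, the lysosomal protease cathepsin L, was at 1841 CPM in HIR and 887 CPM in sham (2.08), and Cst3, the cathepsin inhibitor cystatin C, at 5747 CPM in HIR and 2392 CPM in sham (2.40). Enzyme and inhibitor were thus both higher.

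Ctsl was also past 2-fold in alveolar fibroblast-like cells (ratio 2.39), the Wnt11 and Lum cells (2.58) and the myofibroblast- or smooth muscle-like cells (2.24). Cst3 was past 2-fold in alveolar fibroblast-like (2.71) and smooth muscle-like cells (2.73) and, in a value chosen after it was seen, in venous endothelium-like cells (3.63). Over the list, 3 of 9 genes were higher and 1 lower in alveolar fibroblast-like cells, where 21.3% of all genes were higher and 13.4% lower. The Wnt11 and Lum cells had 3 of 9 higher and none lower, against 8.27% and 8.29% of all genes, and myofibroblast- or smooth muscle-like cells 3 of 9 higher and 1 lower, against 11.0% and 6.19%. Smooth muscle-like cells had 1 of 7 higher and 1 lower, against 8.09% and 11.0% of all genes, and venous endothelium-like cells 3 of 8 higher and 2 lower, against 6.98% and 10.6%.

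Of 13 genes for signals that induce elastin or lysyl oxidase, 5 of 11 measured were lower and none higher in the Wnt11 and Lum cells, against 8.29% and 8.27% of all genes. Their median log2 ratio was -0.37, and -0.21 with all listed genes that had a UMI. Ccn2, the matricellular growth factor CTGF, was at 165 CPM in HIR and 497 CPM in sham (ratio 0.332), and Igf1, insulin-like growth factor 1, at 55.7 CPM in HIR and 149 CPM in sham (0.373). In myofibroblast- or smooth muscle-like cells 3 of 10 were lower, against 6.19% of all genes, with Ccn2 at 135 CPM in HIR and 336 CPM in sham (0.404) and Igf1 at 29.5 CPM in HIR and 101 CPM in sham (0.291). Adventitial fibroblast-like cells had 3 of 9 lower and 1 higher, against 12.1% and 13.5% of all genes, with Igf1 at 92.9 CPM in HIR and 200 CPM in sham (0.464).

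Alveolar fibroblast-like cells had 2 of 10 of these signals lower and 2 higher, near the 13.4% and 21.3% of all genes. In smooth muscle-like cells 1 of 9 was lower and 3 were higher, against 11.0% and 8.09% of all genes, and in venous endothelium-like cells 1 of 8 was lower and 2 were higher, against 10.6% and 6.98%. Further genes of cross-linking and procollagen processing, 9 symbols of which 8 are in the tables, were sparse: 2 or 3 were measured in a class, none was higher, and 1 or 2 were lower. Of all measured genes, from 6.19% to 13.4% were lower and from 6.98% to 21.3% higher in a class. With all listed genes that had a UMI, the median log2 ratio of this list ran from -0.29 to 0.02 over the classes.

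To see which genes share a pattern over cell types, log2(CPM + 10) was compared over the 20 classes and 2 libraries, 40 points that share library and depth, among 6521 genes. Eln was most like C1qtnf5 (Pearson's r = 0.969), Abi3bp (0.925) and Ltbp4 (0.924). Fbn1 was most like Ltbp4 (0.974), C1qtnf7 (0.968) and Bgn (0.967), and Fbln5 most like Srpx (0.930), Plod2 (0.926) and Abi3bp (0.901). Loxl1 was most like Pcolce (0.972), Olfml3 (0.963) and Dpt (0.960), and Pcolce most like Col1a1 (0.978), Loxl1 (0.972) and Rarres2 (0.965). Loxl1 and Pcolce thus named each other among their 3 nearest.

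Mfap5 was most like LOC100910978 (0.967), Adamts2 (0.962) and Ca11 (0.959). Lox was most like NEWGENE_1308171 (0.972), Aoc3 (0.962) and Abca8a (0.959), and Loxl2 most like Reck (0.965), Emilin1 (0.964) and Dmpk (0.955). These values describe the order of cell classes and carry no test.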

How the data were processed

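Per the labels' protocols, minced lungs were digested with elastase together with collagenase and DNase, freed of red cells by lysis and loaded on a 10x Genomics chip. The part of this digestion in the RNA levels was not tested. Per the submitters' processing notes, Cell Ranger 6.0, STAR and Seurat 4.0 were used with build mm10. The header of each matrix names cellranger 5.0.0, per the file headers. The matrices the authors deposited hold whole-number UMI counts per gene and barcode, not normalized, and no barcode has fewer than 500 UMIs.

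Barcodes under 200 genes or over 20% mitochondrial UMIs were dropped, as were 668 HIR and 864 sham barcodes scored as likely doublets by Scrublet. Both libraries were clustered together in scanpy 1.11.5 (2000 variable genes without the 8 members, 30 components, 15 neighbours, Leiden resolution 1.0 with igraph 0.11.9). A cluster took a name with at least 3 of a list's markers over 2-fold above other clusters, a mean log2 fold of at least 0.8 and at least 1 marker among its 10 leading genes. This naming rule was set after the data were seen. Counts were summed per class and library. Ratios have exact conditional and shares exact Clopper-Pearson 95% intervals (scipy 1.17.1), and both cover counting error only. Only the ratio intervals were tried on simulated data. Those counts were drawn independently, as the intervals assume, so the trial cannot show how they hold where UMIs gather in few cells. All 8 members were named in each class. Other pathway genes were named from 100 CPM in either library and a ratio past 2-fold in a stromal class, and similar genes were the 3 with the highest Pearson correlation among genes reaching 50 CPM. Thinning drew 1000 or 2000 UMIs per cell. The members, marker lists and gene lists were chosen with earlier results of these data known.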

Additional observations from a re-analysis of the deposited data

Results flagged for a closer look

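The HIR over sham ratios of Eln and Fbln5 were past 1.5-fold in opposite directions in different classes. The difference between classes was not tested. The log2 ratio of Eln, HIR over sham, was 0.71 in alveolar fibroblast-like cells, against -0.87 in the Wnt11 and Lum cells, -1.12 in myofibroblast- or smooth muscle-like cells and -0.99 in venous endothelium-like cells. The log2 ratio of Fbln5 was 0.49 in the Wnt11 and Lum cells, where it rests on 66 HIR and 39 sham UMIs and on a level that reached the minimum in HIR only, against -0.75 in adventitial fibroblast-like, -0.87 in alveolar fibroblast-like and -1.27 in venous endothelium-like cells. With 10 CPM added that value of 0.49 is itself under 1.5-fold, and it ran from 0.20 to 0.72 over the alternatives.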

How the results depend on the processing

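No paired analysis was possible because each group has 1 library. The 40 values of single genes in the 6 classes were recomputed 504 times over the alternatives. Of these, 466 stayed within the counting interval of the reported log2 ratio, 38 moved outside it and 0 changed the sign of a ratio past 1.5-fold; all 26 such ratios kept 1 sign throughout. The median log2 ratio of the genes was compared with a band from the median of the genes' lower bounds to the median of their upper bounds. That band is no confidence interval of the median, which left it 6 times. In the Wnt11 and Lum cells it was -0.77 with all genes that had any UMI and -1.01 with the stricter cell filter, against -0.90. In myofibroblast- or smooth muscle-like cells it was -0.86 with 50 CPM added, -0.72 with all genes that had any UMI and -0.84 with each library clustered alone, against -0.97. In venous endothelium-like cells it was -0.18 with all genes that had any UMI, against -1.05, because that setting brings in 4 genes with few UMIs there. The share of alveolar fibroblast-like cells with a Loxl2 UMI was 0.272 percentage points higher in HIR after thinning to 1000 UMIs, although lower before thinning. Leaving out the richest cell or venous cells with an arterial marker, and a minimum on the mean level, were alternatives chosen after seeing the data. Loxl2, Lox outside fibroblasts and Mfap5 in venous cells are limited by few UMIs. Gating each cell alone gave no value for 3 of the 6 classes.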

Other observations

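Alveolar type 1 epithelium-like and lymphatic endothelium-like cells were not compared because a library held fewer than 100 of them. Lymphatic endothelium-like cells, 8 in HIR and 41 in sham, had 686 CPM of Eln in HIR and 946 CPM in sham, from 18 HIR and 314 sham UMIs, a ratio of 0.725 (0.424 to 1.17). Their Fbln5 went the other way, with 381 CPM in HIR and 163 CPM in sham from 10 HIR and 54 sham UMIs, a ratio of 2.34 (1.06 to 4.65), and Fbn1 stood at 76.2 CPM in HIR and 63.3 CPM in sham, from 2 HIR and 21 sham UMIs. Aerocyte capillary endothelium-like cells came from 2 clusters that differed in Eln level, with 130 CPM in HIR and 179 CPM in sham in the first and 30.4 CPM in HIR and 38.4 CPM in sham in the second.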
